A study of Homo sapiens with 12 samples.

Results

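RNA polymerase I is the nucleolar enzyme that transcribes the ribosomal RNA genes. The mRNAs of 10 of its subunits and factors were followed in cell lines that the study names as ovarian cancer. They were treated with quinacrine (QC), an acridine drug first used against malaria. The genes were 5 subunits (POLR1A, POLR1B, POLR1C, POLR1D and POLR1E), 2 factors of initiation (UBTF and RRN3) and 3 components of the promoter selectivity complex SL1 (TAF1B, TAF1C and TAF1D). They were chosen by name, and each matched 1 of the 60669 gene IDs counted. RNA-seq counts came from 6 established lines, each treated with 8 µM QC or with vehicle (control) for 6 h, with 1 library for each line and treatment and 12 in all. The sensitive lines were HeyA8, SK-OV-3 and OV2008. Their isogenic resistant partners were, in that order, the carboplatin-resistant HeyA8-MDR, the taxol-resistant SK-OV-3-TR and the cisplatin-resistant C13, which was derived from OV2008 (agents as in the study's methods). A line and its partner are called a family here, written HeyA8, SKOV3 and OV2008. The study asked how QC alters transcription in sensitive and resistant cells. No line had a repeat library. Errors of a fitted change therefore draw on the spread between lines, estimated over all libraries of the fit. They do not measure the spread within 1 group or family, and an error per line covers counting only.

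RNA polymerase I sits on the ribosomal RNA promoter together with the upstream binding factor (the product of UBTF) and SL1, and RRN3 links the enzyme to that promoter complex. Its single long transcript is processed into most of the ribosomal RNA of a cell. Growing tumour cells make much ribosomal RNA, and the enzyme has been studied as a drug target. The libraries were made from polyadenylated RNA and therefore measured the mRNAs of this machinery, not the ribosomal RNA that it makes.

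Total counts per library were 17782556 to 30585059 (median 22289428), and the members had between 164 (RRN3) and 7632 (TAF1D) counts in a library. All 10 members passed the filter on low counts, as did 18720 genes in all. Levels are normalized CPM, counts divided by library size after scaling by TMM. The summed ovarian markers PAX8, WT1 and MUC16 were at 244 to 484 CPM in the libraries of the HeyA8 and SKOV3 families and at 13.1 to 28.6 CPM in those of the OV2008 family, while summed epithelial markers ranged from 455 CPM (SK-OV-3-TR) to 8280 CPM (OV2008 with QC). The ovarian sum of the HeyA8 and SKOV3 families was almost all PAX8 (234 to 480 CPM). In no library did WT1 exceed 4.79 CPM or MUC16 10.9 CPM, and neither of them separated the families as PAX8 did. The identity of the lines was not tested. Within the epithelial list, EPCAM, KRT19 and CDH1 were near 0 in the HeyA8 family. Markers of leukocytes, endothelium and fibroblasts (PTPRC, CD3E, VWF, DCN and COL1A1) summed to 1.3 to 41.3 CPM. The HeyA8 library with QC was also placed between the vehicle libraries of HeyA8 and HeyA8-MDR, which was done for no other QC library. At the 34 genes that were at least 8-fold higher in vehicle-treated HeyA8-MDR than in vehicle-treated HeyA8, its level lay a median 38.4% of the way from HeyA8 to HeyA8-MDR, and at the 75 genes that were at least 8-fold lower it lay 51.3% of the way. These genes were chosen with the same vehicle libraries that set the ends of the scale, and no other QC library gives a comparison. For POLR1A and POLR1B, the fits over all lines, over sensitive lines and between groups are given with and without HeyA8. Other values that include HeyA8, such as the fitted family values, differences between families and likeness to POLR1A, are mostly given only with it. The part that the HeyA8 library with QC plays in these results was not tested.

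POLR1A encodes the largest, catalytic subunit and POLR1B the second-largest subunit, and together they form the active site. In GRCh38 (RefSeq, patch p14), POLR1A lies at chr2:86020216-86105886 on the minus strand and POLR1B at chr2:112542036-112579818 on the plus strand. Their main transcripts are 12480 and 7527 bases long in 34 and 15 exons. The sequence just before an annotated start of each is shown because both mRNAs had their strongest decreases with QC in the HeyA8 family. Each line gives 250 bases, 5′ to 3′ on the strand of the gene, from chr2:86105887-86106136 for POLR1A and from chr2:112541786-112542035 for POLR1B, and capitals mark the ETS motif CCGGAAG.
POLR1A: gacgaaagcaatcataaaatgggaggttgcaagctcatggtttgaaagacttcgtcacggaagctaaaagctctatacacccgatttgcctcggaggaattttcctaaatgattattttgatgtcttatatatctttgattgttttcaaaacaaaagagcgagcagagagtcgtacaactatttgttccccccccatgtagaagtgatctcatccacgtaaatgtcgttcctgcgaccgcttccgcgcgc
POLR1B: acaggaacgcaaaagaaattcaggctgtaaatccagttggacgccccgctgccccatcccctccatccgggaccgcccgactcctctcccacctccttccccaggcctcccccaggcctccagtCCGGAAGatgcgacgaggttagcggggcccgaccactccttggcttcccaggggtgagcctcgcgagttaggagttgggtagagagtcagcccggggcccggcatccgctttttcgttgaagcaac
The stretch before POLR1A was 43.2% G or C and that before POLR1B 63.6%. The ETS motif began at position -126 from this start of POLR1B, and the same letters were not found in the POLR1A window. A further annotated start of POLR1B, not shown, had another match, on the other strand, at position -42.

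Over all members, 9 of 10 matched an entry of the RefSeq promoter table (POLR1E had none), in which a window runs from 250 bases before to 50 bases after a start. CCGGAAG, on either strand, was present in 6 of the 9 (POLR1B, POLR1C, RRN3, TAF1B, TAF1C and TAF1D), compared with 12.2% of the 27305 genes in that table and 20.2% of the 12630 of them that were tested. The E-box CACGTG, the site of MYC among other factors, was in 0 of 9 windows, in 8.77% of all genes and in 11.9% of tested genes. CGCATGCG, the core of the NRF1 site, was likewise in 0 of 9, in 2.46% of all genes and in 4.09% of tested genes. Before POLR1C, 2 matches of CCGGAAG on opposite strands overlap. These are matches of letters only.

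With QC, POLR1A mRNA was lower in 6 of 6 lines, and the differences were larger in both lines of the HeyA8 family than in the other 4 lines. In vehicle libraries it was at 192 CPM in HeyA8, 124 in SK-OV-3 and 239 in OV2008, and with QC at 85.1, 122 and 230 CPM. Its level went from 95.6 to 35.4 CPM in HeyA8-MDR, from 70.7 to 67.1 CPM in SK-OV-3-TR and from 152 to 124 CPM in C13. The QC and vehicle ranges overlapped in both groups, since the lines differed more among themselves than most of them did with treatment. The ratio of QC to vehicle was 0.443 in HeyA8 (95% counting interval 0.421 to 0.466, from 4332 and 2328 counts) and 0.37 in HeyA8-MDR (0.337 to 0.406, from 1841 and 598 counts). It was 0.987 in SK-OV-3, 0.948 in SK-OV-3-TR, 0.962 in OV2008 and 0.815 in C13, and of these 4 only the interval of C13 lay below 1. Of the 18720 genes tested, 4.39% had a more negative change than POLR1A in HeyA8 and 4.22% in HeyA8-MDR, compared with 42.0% to 44.8% in SK-OV-3, SK-OV-3-TR and OV2008 and 27.5% in C13.

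POLR1B was lower with QC in 5 of 6 lines and lowest, relative to vehicle, in HeyA8-MDR. Its level in HeyA8, SK-OV-3 and OV2008 was 58.1, 72.7 and 155 CPM with vehicle and 37.3, 64.0 and 164 CPM with QC. It went from 43.0 CPM with vehicle to 14 CPM with QC in HeyA8-MDR, from 50.6 to 48.0 CPM in SK-OV-3-TR and from 133 to 112 CPM in C13. The 2 lines of the HeyA8 family again had the strongest decreases, and the 2 lines of the OV2008 family held the highest levels under both treatments. The ratio was 0.325 in HeyA8-MDR (0.28 to 0.376, from 828 and 236 counts), 0.642 in HeyA8 (0.591 to 0.698) and 0.844 to 1.06 in the other 4 lines. Only OV2008 was above 1 (1.06, 1.01 to 1.11).

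POLR1E encodes a subunit of the heterodimer that helps the enzyme to initiate and elongate, at chr9:37485948-37503697 on the plus strand. It was lower with QC in 6 of 6 lines, and here the change was spread over the 3 families. It was at 36.7, 23.6 and 81.7 CPM in vehicle-treated HeyA8, SK-OV-3 and OV2008 and at 27.5, 15.9 and 64.2 CPM with QC. Among resistant lines, vehicle and QC levels were 55.9 and 37 CPM in HeyA8-MDR, 30.0 and 26.9 CPM in SK-OV-3-TR and 103 and 57.5 CPM in C13. The ratios ran from 0.556 in C13 (0.523 to 0.591) through 0.661 in HeyA8-MDR, 0.674 in SK-OV-3, 0.747 in HeyA8 and 0.786 in OV2008 to 0.895 in SK-OV-3-TR (0.803 to 0.996). All 6 counting intervals lay below 1, which held for no other member. POLR1A and POLR1E were the 2 members that were lower in 6 of 6 lines, a direction shared by 861 of the 18720 genes (4.6%).

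**Figure D1:**
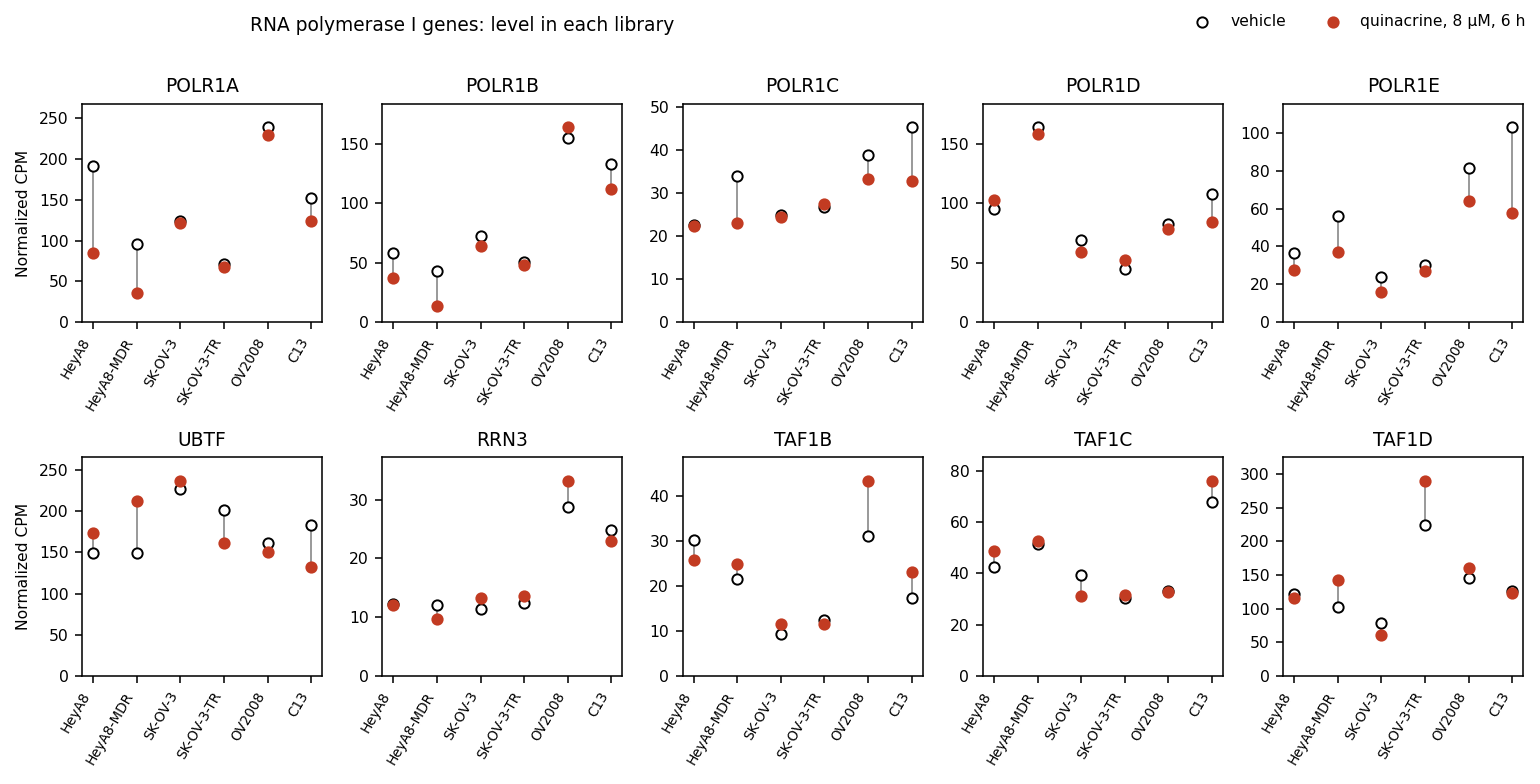
Normalized CPM (vertical axes, each from 0) of the 10 genes in the 6 cell lines (horizontal axes), with 1 open circle for the vehicle library, 1 filled circle for the QC library and a line joining them. POLR1A and POLR1B drop mostly in HeyA8 and HeyA8-MDR, whereas the QC circle of POLR1E lies under the vehicle circle in 6 of 6 lines.

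**Figure D2:**
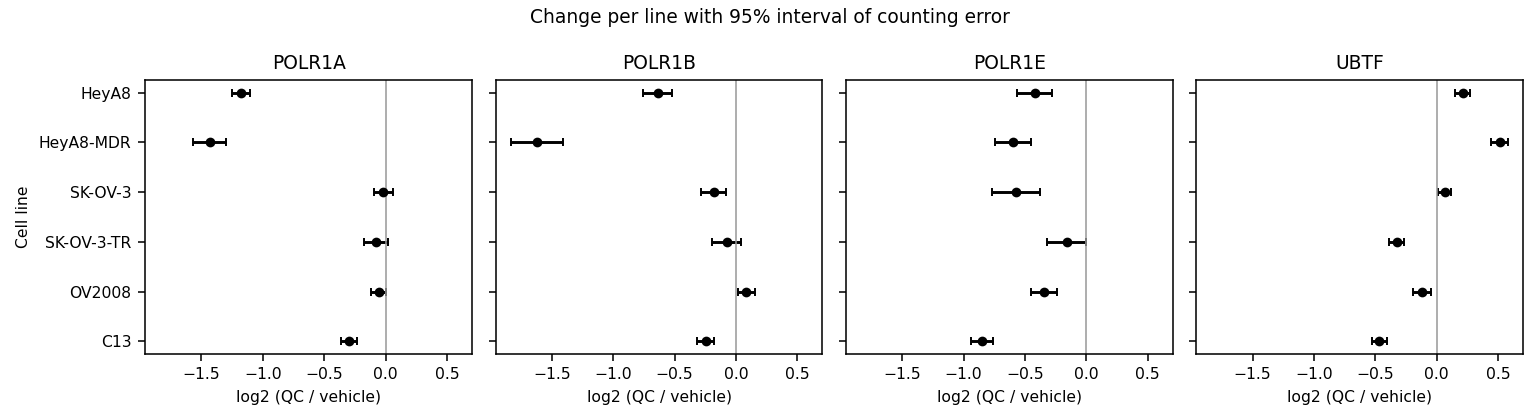
Log2 ratio of QC to vehicle for POLR1A, POLR1B, POLR1E and UBTF in each cell line, with points for the ratio and bars for the 95% interval of counting error. The intervals of POLR1E lie below 0 in 6 lines, and those of UBTF lie above 0 in HeyA8, HeyA8-MDR and SK-OV-3 and below 0 in the other 3.

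POLR1C and POLR1D encode the pair of small assembly subunits that RNA polymerase I shares with RNA polymerase III. POLR1C was lower with QC in 5 of 6 lines, at 0.684 of vehicle in HeyA8-MDR, 0.725 in C13, 0.86 in OV2008, 0.978 in SK-OV-3 and 0.995 in HeyA8, and at 1.02 in SK-OV-3-TR. Its levels ranged from 22.4 to 45.4 CPM. POLR1D moved in both directions, with ratios from 0.784 in C13 to 1.17 in SK-OV-3-TR, and its levels ranged from 44.5 CPM in vehicle-treated SK-OV-3-TR to 164 CPM in vehicle-treated HeyA8-MDR. Parts of POLR1C lie opposite to exons of YIPF3, XPO5 and LRRC73 on the other strand, and the strand setting of the counting is not given in the sources used here, so reads of these overlaps cannot be assigned with certainty.

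UBTF, which bends and occupies the ribosomal DNA, changed in opposite directions in different families. In HeyA8, SK-OV-3 and OV2008 it was at 149, 227 and 162 CPM with vehicle and 173, 237 and 150 CPM with QC. Vehicle and QC levels were 149 and 212 CPM in HeyA8-MDR, 202 and 161 CPM in SK-OV-3-TR and 183 and 132 CPM in C13. It was higher with QC in both lines of the HeyA8 family (ratios 1.16 and 1.43) and lower in both lines of the OV2008 family (0.92 and 0.723). RRN3, the growth-regulated initiation factor, was at 9.71 to 33.2 CPM, and its ratios were between 0.81 in HeyA8-MDR and 1.17 in SK-OV-3. Its partial copies took few reads where they were counted apart, with 5 to 130 counts for RRN3P1, 0 to 4 for RRN3P3 and 0 for RRN3P2. Reads that the copies share with RRN3 may have been dropped or split, so its level is less certain than its counts imply.

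SL1 consists of TBP and associated factors that recognise the core of the ribosomal RNA promoter. TAF1B was higher with QC in 4 of 6 lines, most in OV2008 (1.39) and C13 (1.34), and lower in HeyA8 (0.855) and SK-OV-3-TR (0.943). TAF1C stayed between 0.787 in SK-OV-3 and 1.15 in HeyA8. TAF1D was at 122, 78.6 and 146 CPM in vehicle-treated HeyA8, SK-OV-3 and OV2008 and at 115, 61.3 and 161 CPM with QC. In the resistant lines it went from 102 to 143 CPM in HeyA8-MDR, from 225 to 290 CPM in SK-OV-3-TR and from 126 to 123 CPM in C13. The gene is also a host of small nucleolar RNAs, of which SNORD6 was counted apart at 2 to 26 counts per library and SNORA25, SNORA32, SNORA1, SNORA8, SNORD5, SNORA18 and SNORA40 at 0. Parts of TAF1D lie opposite to exons of CEP295, C11orf54 and MED17 on the other strand. As for POLR1C, reads of these overlaps cannot be assigned with certainty.

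**Figure D3:**
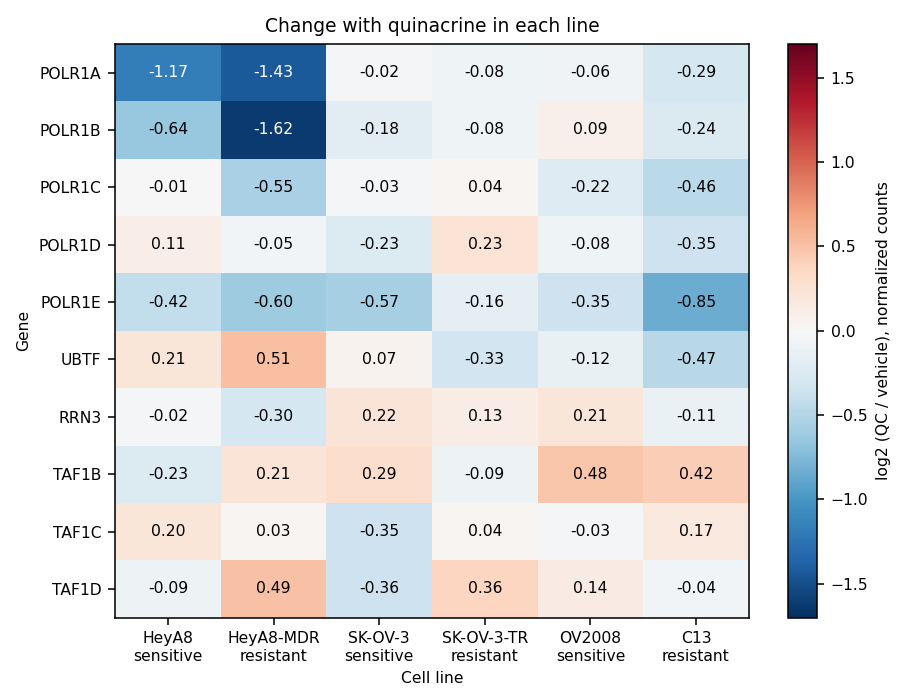
Log2 ratio of QC to vehicle, as colour and number, for each gene (vertical axis) in each cell line (horizontal axis), with the line's resistance under its name. The values below -1 are those of POLR1A in HeyA8 and HeyA8-MDR and of POLR1B in HeyA8-MDR.

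The common QC effect was estimated in a fit over all 12 libraries with a term for each cell line. POLR1A was lower by a log2 change of -0.50 ± 0.19 (SE over 6 lines), POLR1E by -0.49 ± 0.12 and POLR1B by -0.43 ± 0.19. These 3 subunits, and none of the other 7 members, had an unadjusted p under 0.05, a threshold that 15.2% of all genes passed. After adjustment over all genes by edgeR's quasi-likelihood test their adjusted p values were 0.253 for POLR1A, 0.153 for POLR1E and 0.315 for POLR1B, and 0 of 18720 genes had an adjusted p under 0.05 in this fit, while 2840 had an unadjusted one. DESeq2 gave 518 genes with an adjusted p under 0.05, among the members POLR1E with -0.49 and an adjusted p of 0.0123. The remaining members had log2 changes of -0.21 (POLR1C), -0.06 (POLR1D), -0.02 (UBTF), 0.01 (TAF1C), 0.02 (RRN3), 0.08 (TAF1D) and 0.18 (TAF1B). The median over the 10 members was -0.042, beside 0 over all genes. Without both lines of the HeyA8 family, an alternative added after the data were seen, the change of POLR1A was -0.12 ± 0.12 and that of POLR1B -0.12 ± 0.12, whereas POLR1E remained at -0.49 ± 0.15. Without HeyA8 alone POLR1A was at -0.36, POLR1B at -0.38 and POLR1E at -0.51, and without HeyA8-MDR alone they were at -0.33, -0.22 and -0.48. In each of these 3 fits POLR1E was the member that kept an unadjusted p under 0.05. Scaled to RPLP0, which placed the median of all genes at 0.18, POLR1A was at -0.31, POLR1E at -0.31 and POLR1B at -0.24, and no member had an unadjusted p under 0.05.

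In the sensitive lines, 1 member had an unadjusted p under 0.05, beside 6.59% of all genes. This was POLR1E, with a log2 change of -0.45 ± 0.19 (edgeR adjusted p = 0.729). In the resistant lines, POLR1B (-0.62 ± 0.28, edgeR adjusted p = 0.818) and POLR1E (-0.54 ± 0.19, edgeR adjusted p = 0.816) did so, beside 6.03% of all genes. The value of POLR1B in resistant lines rested on HeyA8-MDR and was -0.18 without it, and that in sensitive lines (-0.24 ± 0.27) became 0.03 when scaled to RPLP0. POLR1E in sensitive lines no longer passed without HeyA8 (-0.46), SK-OV-3 (-0.40) or OV2008 (-0.49), and in resistant lines without HeyA8-MDR (-0.52) or C13 (-0.39). POLR1A was at -0.41 ± 0.29 in the sensitive lines and at -0.04 without HeyA8, where POLR1B was at -0.05. In the resistant lines POLR1A was at -0.59 ± 0.29, and at -0.20 without HeyA8-MDR. Without HeyA8, OV2008 or SK-OV-3-TR it had an unadjusted p under 0.05 in the resistant lines (-0.59, -0.59 and -0.84), which makes 3 members there. HeyA8 and OV2008 are sensitive lines, which enter a resistant result only through what the fit shares, such as the estimate of spread. By edgeR 0 genes had an adjusted p under 0.05 in either group (1234 and 1128 genes had an unadjusted one), and DESeq2 called 31 genes in the sensitive and 0 in the resistant lines, with no member among them. The median change of the members was -0.076 in the sensitive and -0.096 in the resistant lines, and that of all genes 0.015 and -0.012.

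A contrast within the same fit compared the QC effect of resistant lines with that of sensitive lines. None of the 10 members had an unadjusted p under 0.05, beside 1.16% of all genes, and edgeR gave each member an adjusted p of 1. The differences (resistant minus sensitive) ran from -0.38 for POLR1B (95% interval -1.22 to 0.464) to 0.37 for TAF1D (-0.193 to 0.935), with POLR1A at -0.18 (-1.07 to 0.705) and POLR1E at -0.09 (-0.674 to 0.487). Without HeyA8 the difference of POLR1A was -0.55, without HeyA8-MDR 0.22 and without both -0.14, and that of POLR1B was -0.57, 0.08 and -0.11. Such intervals leave room for differences of the size of the QC effects themselves. For all genes edgeR called 0 with an adjusted p under 0.05 (217 with an unadjusted one) and DESeq2 called 1.

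Since the changes of POLR1A and POLR1B varied between families, a QC effect per family was also fitted, a step chosen after the values were seen and therefore descriptive. POLR1A had a log2 change of -1.30 ± 0.16 in the HeyA8 family, -0.05 ± 0.16 in the SKOV3 family and -0.18 ± 0.16 in the OV2008 family. POLR1B had -1.11 ± 0.23, -0.13 ± 0.22 and -0.08 ± 0.22. POLR1E was lower in each of the 3 families, with -0.51 ± 0.19, -0.36 ± 0.19 and -0.60 ± 0.19. In the HeyA8 family 3 members had an unadjusted p under 0.05 (POLR1A, POLR1B and POLR1E, each lower), beside 19.7% of all genes. The edgeR adjusted p was 0.0516 for POLR1A and 0.0632 for POLR1B, and 0 genes were under 0.05 (3688 had an unadjusted p under 0.05). DESeq2 gave 2.12e-12 and 0.00137 as adjusted p values in the same family and called 1392 genes. A test that the 3 families differ had an unadjusted p under 0.05 for POLR1A and POLR1B, beside 14.0% of all genes, and the edgeR adjusted p was 0.124 for POLR1A and 0.261 for POLR1B. In the SKOV3 family 0 members had an unadjusted p under 0.05, beside 4.55% of all genes, and in the OV2008 family 1 did (POLR1E), beside 18.9%. In those families edgeR gave 0 (852 with an unadjusted p under 0.05) and 540 genes with an adjusted p under 0.05, and DESeq2 29 and 1444, with no member among them. Each family rests on 2 lines, and its SE draws on a spread shared by all families. For POLR1B, the value of -1.11 ± 0.23 stands for log2 changes of -0.639 in HeyA8 and -1.621 in HeyA8-MDR. In the HeyA8 family, 1 of the 2 lines is HeyA8 itself, whose QC library lay partly towards HeyA8-MDR. Without it that family is HeyA8-MDR alone, with the ratios of 0.37 for POLR1A and 0.325 for POLR1B given above and no test.

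Changes with QC depended on transcript length to different degrees in the lines. In HeyA8 the median log2 change was -0.185 over the 1346 genes with transcripts above 8 kb, and in C13 it was 0.217. For POLR1A, the member with the longest transcript, the trend with length and GC content came to -0.03 in HeyA8, -0.07 in HeyA8-MDR and 0.28 in C13 on the log2 scale. After this trend was removed, a step added once the data had been seen, the change of POLR1A was -1.15 in HeyA8, -1.36 in HeyA8-MDR and -0.57 in C13, and that of the HeyA8 family was -1.25 ± 0.18, with an edgeR adjusted p of 0.0278. POLR1B was then at -1.10 ± 0.25 in that family (edgeR adjusted p = 0.0548). For both subunits the change in the HeyA8 family with the trend and without it differed by less than its SE.

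Before treatment the members spanned a wide range of levels per transcript length. Counts are per gene, while the length is that of 1 main transcript (693 bases for POLR1D), so the order depends on the transcript chosen. The median over the 6 vehicle libraries was 128 CPM per kb of transcript for POLR1D, 76.0 for TAF1D, 36.0 for UBTF, 25 for POLR1E, 23.9 for POLR1C, 11.1 for POLR1A, 10.7 for TAF1C, 8.68 for POLR1B, 8.53 for TAF1B and 3.33 for RRN3. Neighbours in this order overlapped in their ranges over lines, except TAF1D and UBTF (31.1 to 47.3). POLR1D, for instance, ran from 64.2 to 237 CPM per kb and TAF1D from 48.1 to 138. UBTF was the steadiest member, with a 1.52-fold span between its lowest and highest line, and POLR1E the most variable at 4.36-fold. The highest level was in OV2008 or C13 for POLR1A, POLR1B, POLR1C, POLR1E, RRN3, TAF1B and TAF1C, 7 of the 10 members. The share of all genes with their highest level in these lines was not computed, so this count only describes the members.

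**Figure D4:**
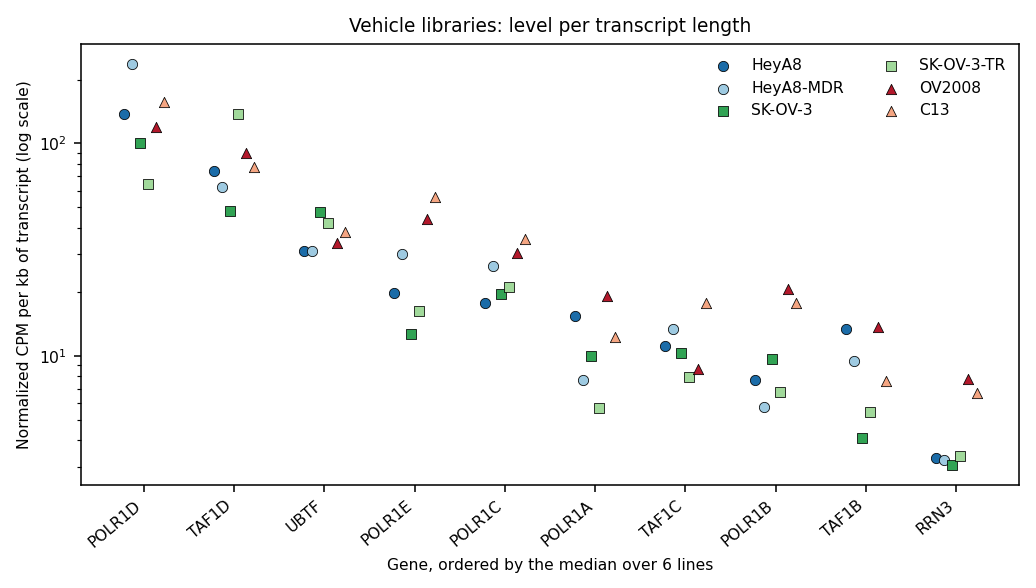
Vehicle libraries, normalized CPM per kb of the main transcript on a log scale (vertical axis) for the 10 genes ordered by their median (horizontal axis), with 1 symbol per cell line. The medians fall from 128 for POLR1D to 3.33 for RRN3, and the triangles of OV2008 and C13 lead in 7 of 10 genes. The matching share over all genes was not computed.

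Vehicle-treated resistant lines were compared with their sensitive partners. POLR1A was lower in each resistant partner, at 95.6 against 192 CPM in the HeyA8 family, 70.7 against 124 in the SKOV3 family and 152 against 239 in the OV2008 family. The fitted log2 difference was -0.81 ± 0.26 (edgeR adjusted p = 0.975), and it was the 1 member with an unadjusted p under 0.05, beside 3.77% of the 16091 genes tested in these libraries. Without 1 family the difference of POLR1A was -0.73 to -0.87 and no longer passed that threshold. POLR1B was at -0.38 ± 0.26. POLR1E and POLR1C, in contrast, had higher levels in each resistant partner, with fitted differences of 0.44 ± 0.28 and 0.32 ± 0.32, which did not pass the unadjusted threshold. The other members lay between -0.31 (TAF1B) and 0.35 (TAF1D). By edgeR 0 genes had an adjusted p under 0.05 (606 an unadjusted one), DESeq2 called 41, and no member was among them.

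Other polymerase genes were read beside the members in the fit over 6 lines. None of the 7 further RNA polymerase I genes (POLR1F, POLR1G, POLR1H, TAF1A, TBP, TTF1 and CAVIN1) had an unadjusted p under 0.05, and their median log2 change was -0.033. The smallest p among them were those of POLR1G, the partner of POLR1E in the heterodimer, at -0.24 ± 0.14 and of the termination factor TTF1 at -0.13 ± 0.13. POLR1G was lower in 6 of 6 lines, as were 4.6% of all genes. Among the 10 subunits of RNA polymerase III, POLR3B, its second-largest subunit, was lower (-0.47 ± 0.13, edgeR adjusted p = 0.175), with an unadjusted p under 0.05. The median of these 10 was -0.078. Of the 7 subunits of RNA polymerase II none passed, the nearest being POLR2D (-0.20 ± 0.12) and POLR2I (-0.30 ± 0.21), with a median of 0.027.

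The 5 small subunits common to RNA polymerases I, II and III had a median of 0.117, and POLR2K was higher (0.53 ± 0.14, edgeR adjusted p = 0.164, with an unadjusted p under 0.05), followed by POLR2L (0.37 ± 0.17). In the HeyA8 family their median was 0.699, and 4 of the 5 had an unadjusted p under 0.05, each higher, beside 19.7% of all genes. In the OV2008 family their median was -0.295, and POLR2H alone passed that threshold (-0.47 ± 0.16, lower), beside 18.9% of all genes. In the SKOV3 family their median was 0.25, and POLR2K and POLR2L passed it, both higher (0.53 and 0.59), beside 4.55% of all genes. Among 10 regulators of RNA polymerase I, RB1, the retinoblastoma tumour suppressor that restrains it, was higher (0.63 ± 0.15, edgeR adjusted p = 0.151), with an unadjusted p under 0.05. It was higher with QC in 6 of 6 lines, a direction shared by 773 of the 18720 genes (4.13%). MYC, an activator of ribosome production, was at -0.26 ± 0.13 and the median of the regulators was -0.07.

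**Figure D5:**
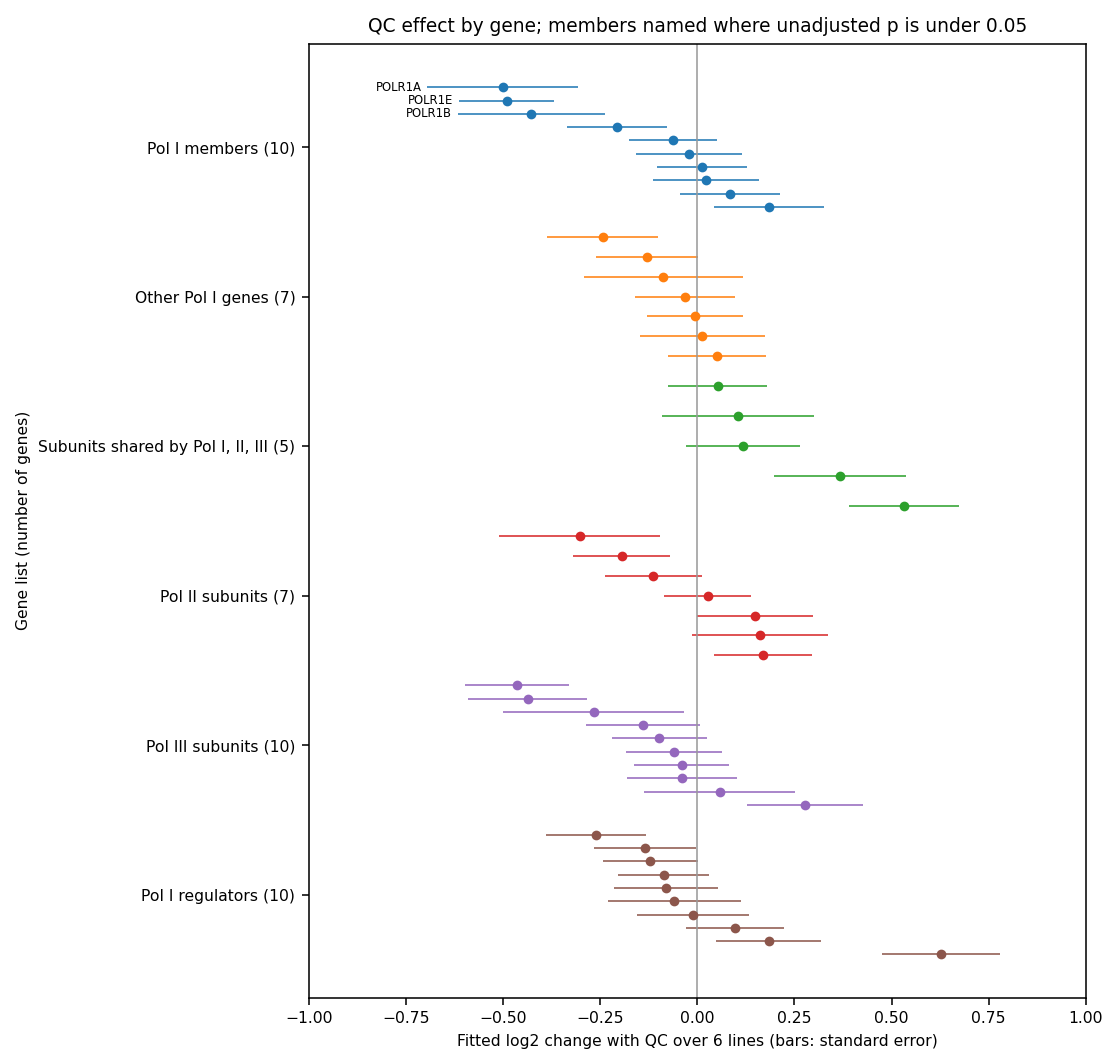
Fitted log2 change with QC over the 6 lines (horizontal axis) for each gene of 6 lists (vertical axis), with points for the estimate and bars for the standard error. POLR1A, POLR1E and POLR1B, the members named in the plot, form the low end of the RNA polymerase I members at -0.50, -0.49 and -0.43.

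Across the 12 libraries, the log2 levels most like those of POLR1A among 10127 genes with a mean of at least 10 CPM included those of VPS18 (Pearson r = 0.96) and HERC2 (0.937). Of the members, POLR1B came nearest (r = 0.884, rank 20), followed by RRN3 (0.721), POLR1C (0.475) and POLR1E (0.443). UBTF had r = -0.379. The 12 points share lines in pairs, so these values describe the likeness over these libraries and carry no test.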

How the data were processed

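Polyadenylated RNA of 12 cultures (6 lines, vehicle or QC) was sequenced from TruSeq libraries. The values the authors deposited are raw counts per gene. The submitters' processing notes name STAR 2.7.3a, HTSeq 0.6.1p1 and GRCh38.p13, whereas the study's methods name TopHat, hg19 and HTSeq. The annotation release and the strand setting are not given in the sources used here. Ensembl IDs without version were paired with symbols for 58663 of 60669 IDs (0.132% of counts stayed unpaired). Positions and promoters are those of RefSeq on GRCh38.p14, and transcript lengths and GC content come from a GENCODE annotation on GRCh37.

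Counts were analysed with edgeR 4.0.16 (quasi-likelihood test, filterByExpr by the 4 groups with a minimum count of 10 and a minimum total of 15, TMM) in R 4.3.3, with 1 term per cell line, and p-values were two-sided and adjusted over all genes by the Benjamini-Hochberg method. SE values are the log2 change divided by the root of F. Libraries were paired by their shared cell line, and the deviations of a pair from the group means correlated at 0.893 to 0.929. Vehicle libraries were compared with the isogenic family as block. P-values measure the spread between lines as estimated over all libraries of a fit. Counting intervals (exact binomial, 95%) cover counting error only. DESeq2 1.42.0, other scalings and filters, left-out lines, RPLP0 scaling and a removed trend with length and GC content (loess, span 0.5, 18603 genes) were alternatives. The pipeline was tested on simulated data.

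The members and lists were chosen with earlier results of these data known. All 10 members are named. Of the other lists those with an unadjusted p under 0.05 and the 2 with the smallest p are named, and the genes most like POLR1A are the 3 with the highest r. Not every gene chosen this way is reported, although all were kept in the fits.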

Additional observations from a re-analysis of the deposited data

Results flagged for a closer look

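The QC effect on POLR1A differed between the 3 families by a test at an unadjusted p under 0.05, with an edgeR adjusted p of 0.124, and that on POLR1B with 0.261. The mean log2 change of UBTF was higher by 0.654 in the HeyA8 than in the OV2008 family, because it was higher with QC in both lines of the former and lower in both lines of the latter. For RRN3 the mean log2 change of the HeyA8 family minus that of the SKOV3 family was -0.331. Its ratio of QC to vehicle was 0.989 in HeyA8 (counting interval 0.841 to 1.16) and 0.81 in HeyA8-MDR (0.659 to 0.993). It was 1.17 in SK-OV-3 (0.985 to 1.38) and 1.09 in SK-OV-3-TR (0.931 to 1.28). Only the interval of HeyA8-MDR lay wholly below no change, and the direction in the other lines of these families was within counting error. The UBTF and RRN3 differences were not tested as such, while the test over the 3 families gave edgeR adjusted p values of 0.388 and 0.803.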

How the results depend on the processing

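Of the alternatives per member, 528 kept the direction and side of the adjusted threshold, 36 reversed and 2 passed it: POLR1E over 6 lines by DESeq2 (adjusted p = 0.0123) and POLR1A with no filter on low counts (edgeR adjusted p = 0.0273). No member passed that threshold in the main fits, so keeping its side means not passing. For the difference between groups and the vehicle libraries, only POLR1A, POLR1B, POLR1E and TAF1D were followed. Counts of members with an unadjusted p under 0.05 were 1 (sensitive), 2 (resistant), 3 (6 lines) and 1 (vehicle libraries). Without the cell line or family block they were 0, 0, 0 and 0. They fell to 1 in resistant lines with library size only or at least 10 counts in every library, to 2 over 6 lines with library size only, and to 0 in sensitive lines with no filter, while resistant lines had 3 with no filter or only their own 6 libraries. Leaving out 1 line gave 0 to 1 member in sensitive lines (0 without HeyA8, SK-OV-3 or OV2008), 0 to 3 in resistant lines (0 without HeyA8-MDR, 1 without C13, 3 without HeyA8, OV2008 or SK-OV-3-TR) and 1 to 3 over 6 lines (1 without HeyA8 or HeyA8-MDR), and leaving out a family gave 0 to 0 in vehicle libraries. Scaling to RPLP0, which moved the median of all genes to 0.289, 0.0807 and 0.183, left 0, 0 and 0 members, and without both HeyA8 lines 0, 0 and 1 remained. The cause was not tested.

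The reversed values follow. Scaled to RPLP0, sensitive lines gave POLR1B 0.0325, POLR1C 0.19, POLR1D 0.21, TAF1C 0.22 and TAF1D 0.17, resistant lines POLR1D 0.0341 and RRN3 0.0027, and 6 lines POLR1D 0.12 and UBTF 0.16. With the length and GC trend removed, 6 lines gave UBTF 0.0195, RRN3 -0.0305 and TAF1D -0.0127. Without both HeyA8 lines UBTF was -0.0409 in sensitive lines and TAF1C -0.0521 over 6. With 1 line left out, sensitive lines gave UBTF -0.0293 (without HeyA8) and POLR1D 0.0026, TAF1C 0.0718 and TAF1D 0.012 (without SK-OV-3), resistant lines UBTF 0.0385 (without SK-OV-3-TR) and 0.0782 and POLR1D 0.0742 (without C13), and 6 lines TAF1C -0.0317, -0.0273 and -0.0068, TAF1D -0.0101, RRN3 -0.0227 and -0.0128 and UBTF 0.0011, 0.0384 and 0.0565. The difference between groups then was 0.00425, 0.0341 and 0.22 for POLR1A, 0.0768 for POLR1B and 0.0612 for POLR1E, and TAF1D in vehicle libraries was -0.22 without the SKOV3 family.

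Over all genes, no filter raised those with an adjusted p under 0.05 from 0 to 195 (sensitive), 35 (resistant), 791 (6 lines), 5 (difference) and 146 (vehicle), and no block lowered those with an unadjusted p under 0.05 to 30, 23, 88, 6 and 104.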
